A study of Mus musculus with 1078 samples.

Results

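The complement genes described here are C1qa, C1qb and C1qc, which encode the 3 chains of C1q, together with C3, C3ar1, C4b and Serping1. They were chosen by name, and all 7 were found among the 21765 genes of the expression table, which holds 1078 single cells. The cells came from tumors of GL261, a mouse glioma line grown in syngeneic C57Bl/6 mice of both sexes aged 6 to 8 weeks, and were profiled by Smart-seq2, a full-length single-cell RNA-seq method. Tumor-bearing mice received losartan plus anti-PD1 antibody, anti-PD1 antibody alone, losartan alone, or neither drug (control). Losartan, a blocker of the angiotensin II type 1 receptor, was injected daily at 60 mg/kg for about 2 weeks against saline. Anti-PD1 antibody (clone RMP1-14) was started after 1 week of losartan, as 3 doses of 200 μg per mouse at intervals of 3 days, against control IgG. The cells of each treatment were sorted into a CD31-positive (CD31+CD45-), a CD3-positive (CD3+CD45+), a CD45-negative and a CD45-positive fraction, giving 16 plates with 1 plate for each sort and treatment.

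The labels name no animal, so each treatment within a sort is 1 sample, no test between treatments was possible, and the values below describe these plates. Plate and treatment cannot be told apart, and shares of cells carry exact Clopper-Pearson 95% intervals that cover counting error only. The values of each cell were scaled to a total of 100000 (TP100K). The CD31-positive and CD3-positive plates hold values corrected for transcript length, whereas the CD45-sorted plates hold estimated counts that are not, so levels were compared within a sort and, between genes, only on the length-corrected plates. Estimated counts summed to between 3598 and 1896090 per cell on the CD45-negative plates and between 7946 and 1808020 on the CD45-positive plates, and the depth of the other plates is unknown. The treatment label of the losartan CD45-negative plate (49 cells) was followed, although another column of the deposited cell annotation names that plate as losartan+anti-PD1.

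Some wells shared most of their profile. On the losartan CD45-positive plate, 2 myeloid wells correlated at r = 0.976 and 4 neighbouring myeloid wells were linked at r = 0.758 to 0.899, where the median over pairs on a plate was 0.329 to 0.414. On the losartan CD3-positive plate, 3 microglia wells were linked at r = 0.789 to 0.892. When linked wells were merged, C1qa averaged 6.31 TP100K over 30 losartan myeloid wells, compared with 5.64 TP100K over 34 wells as deposited, and 466 TP100K over 5 losartan microglia wells of the CD3-positive plate, compared with 418 TP100K over 7.

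Complement is a cascade of plasma and tissue proteins that tags cells and debris for removal. C1q is the recognition unit of the classical pathway: once bound, it activates the proteases C1r and C1s, which cleave C4 and C2 to form the convertase that splits C3. C3 is the point where all pathways meet, its fragment C3b coats targets, and its fragment C3a signals through the receptor encoded by C3ar1. C4b encodes mouse C4, and Serping1 encodes the C1 inhibitor, which blocks C1r and C1s. In the brain, C1q is made chiefly by microglia and related macrophages, and C1q and C3 are known for tagging synapses for engulfment by microglia.

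All 7 genes lie on the minus strand of GRCm38 (GENCODE vM21). The C1q chains are neighbours: C1qb (chr4:136880129-136886187), C1qc (chr4:136889804-136893065) and C1qa (chr4:136895917-136898803) span 18.7 kb with no other annotated gene among them. C3 (chr17:57203970-57228136) and C4b (chr17:34728380-34743882) share chromosome 17, C3ar1 is at chr6:122847138-122856161 and Serping1 at chr2:84765387-84775444. The RefSeq promoter windows of the 4 genes with an entry in the table used here (GRCm38.p6, 250 bases before to 50 bases after the start, minus strand, 5′ to 3′) are shown because these genes were detected chiefly in cells labelled microglia. They lie at chr4:136886151-136886450 (C1qb), chr4:136892865-136893164 (C1qc), chr6:122856108-122856407 (C3ar1) and chr17:57228087-57228386 (C3).
C1qb: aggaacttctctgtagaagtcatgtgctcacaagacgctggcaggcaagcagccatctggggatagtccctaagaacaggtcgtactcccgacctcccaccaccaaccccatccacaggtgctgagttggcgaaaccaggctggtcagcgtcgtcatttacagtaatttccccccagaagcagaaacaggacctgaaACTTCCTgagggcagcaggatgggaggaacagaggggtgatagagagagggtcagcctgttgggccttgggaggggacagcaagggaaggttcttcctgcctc
C1qc: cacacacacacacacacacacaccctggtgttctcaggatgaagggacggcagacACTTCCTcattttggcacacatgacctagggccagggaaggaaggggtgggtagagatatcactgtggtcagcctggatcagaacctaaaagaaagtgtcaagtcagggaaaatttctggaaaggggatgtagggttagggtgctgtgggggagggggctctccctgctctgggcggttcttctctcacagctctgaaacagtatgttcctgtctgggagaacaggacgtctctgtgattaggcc
C3ar1: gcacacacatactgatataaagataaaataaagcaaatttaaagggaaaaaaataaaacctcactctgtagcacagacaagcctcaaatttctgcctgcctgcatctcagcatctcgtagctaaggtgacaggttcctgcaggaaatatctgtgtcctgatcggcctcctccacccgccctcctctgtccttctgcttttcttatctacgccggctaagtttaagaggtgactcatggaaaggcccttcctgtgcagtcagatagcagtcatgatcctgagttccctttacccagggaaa
C3: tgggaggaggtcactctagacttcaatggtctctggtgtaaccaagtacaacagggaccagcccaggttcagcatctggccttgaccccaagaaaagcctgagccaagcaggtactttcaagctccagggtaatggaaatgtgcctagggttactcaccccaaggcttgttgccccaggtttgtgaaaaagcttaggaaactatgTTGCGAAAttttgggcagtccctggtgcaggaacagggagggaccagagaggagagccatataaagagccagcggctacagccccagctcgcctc
Capitals in the C1qb and C1qc windows mark ACTTCCT, the reverse complement of AGGAAGT, a core of the kind bound by the myeloid factor PU.1. The first base of the match lies 53 bases upstream of the RefSeq start in C1qb (-53) and 195 bases upstream in C1qc (-195). The GENCODE C1qc gene begins at base 136893065, upstream of the RefSeq start, so the match lies closer to the GENCODE start. Capitals in the C3 window mark a match to TTGCNNAA, a C/EBP-type core, at -45. AGGAAGT was found on either strand in 9.35% of 32851 promoter windows of the same length and TTGCNNAA in 10.8%, and the C3ar1 window holds neither. Both motifs were searched on both strands and were chosen after the sequences had been read, so the matches describe these windows only.

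The 3 C1q chains, C3 and C3ar1 were detected chiefly in the cells that the deposited annotation calls microglia, and C4b and Serping1 in malignant cells and oligodendrocytes. Among 79 microglia of the CD45-positive plates, C1qa was above 0 in 45 (56.96%, interval 45.3 to 68.1%), C1qb in 48 (60.8%) and C1qc in 49 (62.03%). C3 was above 0 in 35 microglia (44.3%) and C3ar1 in 41 (51.9%), whereas C4b was above 0 in 3 and Serping1 in 1. No C1q chain, C3 or C3ar1 was detected in any of 195 endothelial cells of the CD31-positive plates, which allows a share of up to 1.54% of cells by the limit of 3 counts (1.87% by the exact interval). The plot of mean level and share by cell label shows the 7 genes falling into these 2 groups.

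**Figure D1:**
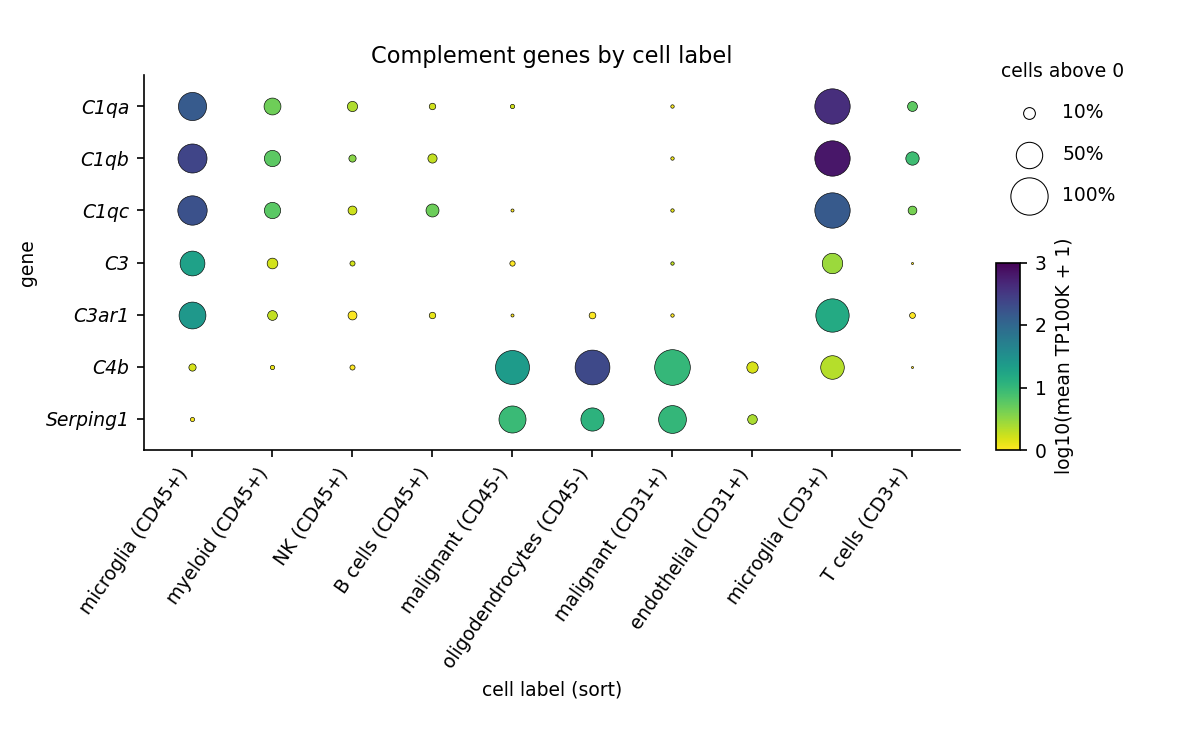
Expression of the 7 complement genes (rows) by cell label and sort (columns). Circle area is the percent of cells above 0 and color is log10 of the mean TP100K plus 1. Color should be read within a sort only, because the CD45-sorted plates hold counts and the other plates hold length-corrected values. C1qa, C1qb, C1qc, C3 and C3ar1 are darkest in microglia, and C4b and Serping1 in malignant cells and oligodendrocytes.

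C1qa averaged 138.8 TP100K in microglia and 3.62 TP100K in the 73 cells labelled myeloid of the same plates. The mean over these myeloid cells was above 0 for all 10 genes of the dendritic marker list, a limit that any value in any cell meets. Genes of that list were also found in microglia of the same plates, such as H2-Ab1 and Cd74. By plate, C1qa in microglia and in myeloid cells was 9.15 and 0.62 TP100K with losartan+anti-PD1, 92.1 and 0 TP100K with anti-PD1 (3 myeloid cells), 223 and 5.64 TP100K with losartan, and 122 and 2.62 TP100K in control. Microglia were the higher on 4 of 4 plates.

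The other chains had the same order. C1qb averaged 240.2 TP100K in microglia and 4.70 TP100K in myeloid cells, and C1qc 181.5 TP100K and 4.84 TP100K. The log2 ratio of means, taken after adding 1 TP100K, was 4.92 for C1qa (plates 2.64 to 6.54), 5.40 for C1qb (plates 3.82 to 7.59) and 4.97 for C1qc (plates 3.77 to 7.54). The chains, C3 and C3ar1 were all more than 2-fold higher in microglia, and 20.9% of 6739 genes were past 2-fold in either direction. These 5 genes reached the 25% detection required in either group through microglia only, with shares of 6.85 to 20.55% in myeloid cells. The labels also rest on expression of these cells, so the count is no support for the difference. The limit of 2-fold is used throughout as a rule of size and is not a test.

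C3 averaged 18.9 TP100K in microglia and 0.592 TP100K in myeloid cells, a log2 ratio of 3.65 that ranged over the plates between 2.89 and 4.69. C3ar1 averaged 24.3 TP100K in microglia and 0.899 TP100K in myeloid cells, a log2 ratio of 3.74 that ranged between 0.93 and 4.94. The lowest C3ar1 value came from the losartan+anti-PD1 plate, on which 1 of 13 microglia had any C3ar1. Myeloid cells still had C1qa above 0 in 15 of 73 (20.6%, interval 11.98 to 31.6%), compared with 4 of 53 natural killer cells (7.55%, interval 2.09 to 18.2%) and 1 of 33 B cells (3.03%) on the same plates. Natural killer and B cells are not known to make C1q, and the median number of detected genes was 4055 in myeloid, 2765 in natural killer and 2771 in B cells, so the low myeloid share was measured in cells with more detected genes. For C1qc the shares were 14 of 73 myeloid cells (19.2%, interval 10.9 to 30.1%), 3 of 53 natural killer cells (5.66%) and 4 of 33 B cells (12.1%, interval 3.40 to 28.2%), and 15.1% of myeloid against 12.1% of B cells after thinning to 50000 reads. The intervals of the myeloid share overlapped those of natural killer or B cells for both chains. Whether free RNA contributed to it was not tested.

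The microglia label covered 2 deposited clusters that differed in C1q. In cluster 6 (51 cells), C1qa, C1qb and C1qc averaged 213, 370 and 280 TP100K, and in cluster 11 (28 cells) 3.28, 4.41 and 2.11 TP100K. All 3 chains were above 0 together in 41 of 51 cells of cluster 6 (80.4%, interval 66.9 to 90.2%) and in 2 of 28 cells of cluster 11 (7.14%, interval 0.877 to 23.5%). C3ar1, the C3a receptor gene, averaged 35.5 TP100K in cluster 6 and 3.87 TP100K in cluster 11. C3 did not share this order, with 18.5 TP100K in cluster 6 and 19.8 TP100K in cluster 11. The clusters were defined on expression of these cells, so these values are a description.

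The marker genes went against the microglia name for cluster 11. Of 10 microglia markers 7 were at 0, among them Tmem119, Sall1, Siglech and Trem2, while 10 of 10 granulocyte markers were above 0 with a median summed level of 1708 TP100K. In cluster 6, 10 of 10 microglia markers were above 0. Within cluster 6, all 3 chains were present in 33 of 34 cells that also had Tmem119 or P2ry12, both defining genes of resident microglia, and in 8 of 17 cells without either. Those 17 cells differed by plate, with all 3 chains in 5 of 5 control, 3 of 6 losartan and 0 of 6 losartan+anti-PD1 cells. This split counts any value above 0. The 1 losartan+anti-PD1 cell with either gene had P2ry12 at 0.242 TP100K and the monocyte gene Ly6c2 at 285 TP100K. P2ry12 averaged 6.19 TP100K in control and 257 TP100K in losartan cells of cluster 6. Taken alone, cluster 11 had log2 ratios over myeloid cells of -0.11 for C1qa, -0.0773 for C1qb and -0.91 for C1qc. The C1q values given for all 79 cells therefore come almost wholly from cluster 6.

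The chains of C1q were found together from cell to cell. Over the 51 cells of cluster 6, the Pearson correlation of ln(TP100K + 1) was 0.88 to 0.93 for the pairs of chains, 0.50 to 0.54 between C3ar1 and a chain, and -0.29 to -0.20 between C3 and a chain. These cells share plates, and detection differs with depth, so the correlations are a description. On the length-corrected CD3-positive plates, where levels of different genes can be set side by side, 9 of 10 cells labelled microglia had all 3 chains. In those cells the median ratio of C1qb to C1qa was 1.77 and that of C1qc to C1qa was 0.301 per unit of length. Of these 9 cells, 3 were the linked wells of the losartan plate. The counts of 41 cluster 6 cells of the CD45-positive plates, not corrected for length, gave 1.74 and 1.42. Why the C1qc ratio differed between the sorts was not tested.

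Of the cells labelled microglia, those of the losartan+anti-PD1 plate held the least C1q, but their markers went against the label. Of these 13 cells, 6 were in cluster 11, and all 7 in cluster 6 had the monocyte genes Ly6c2, Ccr2 and Plac8 and none had Tmem119. Of the other monocyte and macrophage markers, Lyz2 and Ms4a4c were in all 7, Ms4a7 and F13a1 in 3 each, Arg1 in 2, and Mrc1 and Cd163 in 0. Control cells of cluster 6 shared part of this, with Tmem119 in 4 of 16, Ccr2 in 12, Ly6c2 in 8 and Plac8 in 6. Yet 15 of those 16 control cells had all 3 chains. The values below are therefore those of cells under the label. C1qa averaged 9.15 TP100K in 13 losartan+anti-PD1, 92.1 TP100K in 8 anti-PD1, 223 TP100K in 30 losartan and 122 TP100K in 28 control microglia. The lowest cell was at 0 in every group. The median and highest cell were 0 and 118.7 TP100K with losartan+anti-PD1, 24.1 and 289.4 TP100K with anti-PD1, 239.3 and 965.4 TP100K with losartan, and 146.6 and 325.8 TP100K in control. The cells of the 4 plates overlapped, because each plate held microglia without C1qa.

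C1qb averaged 20.97, 192, 370 and 216 TP100K with losartan+anti-PD1, anti-PD1, losartan and control. C1qc averaged 12.9, 186, 307 and 124 TP100K in the same order of groups. All 3 chains were above 0 in 1 of 13 losartan+anti-PD1, 4 of 8 anti-PD1, 21 of 30 losartan and 17 of 28 control microglia. When each cell was thinned to 50000 reads, leaving out 3 shallower control cells, these counts were 1 of 13, 4 of 8, 21 of 30 and 16 of 25. The median number of detected genes was 2189, 2040, 3266 and 2998 in these groups.

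C3 did not follow C1q. It averaged 33.1 TP100K in losartan+anti-PD1, 18.2 TP100K in anti-PD1, 18.3 TP100K in losartan and 13.2 TP100K in control microglia, and was above 0 in 8 of 13, 3 of 8, 12 of 30 and 12 of 28 cells. The highest cells reached 164.6, 140.7, 120.1 and 122.1 TP100K, so the groups overlapped throughout. C3ar1 followed C1q, with 0.93, 29.6, 35.4 and 21.7 TP100K and 1 of 13, 4 of 8, 21 of 30 and 15 of 28 cells above 0.

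**Figure D2:**
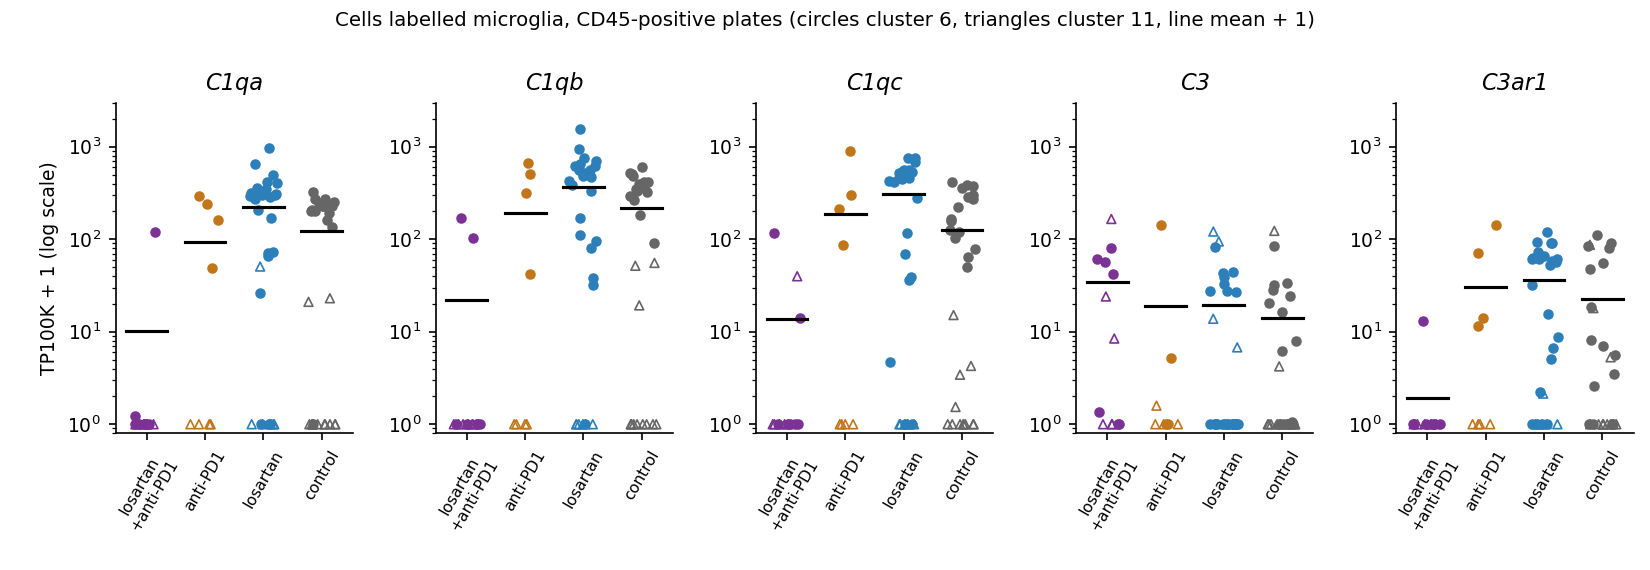
C1qa, C1qb, C1qc, C3 and C3ar1 in cells labelled microglia of the CD45-positive plates, by treatment, as TP100K plus 1 on a log scale. Each point is a cell, split by deposited cluster, and bars are means over cells. In the losartan+anti-PD1 group 2 of 13 cells had C1qa above 0, against 17 of 28 control cells, while C3 was above 0 in 8 of 13 and 12 of 28.

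Over control, the losartan+anti-PD1 log2 ratio was -3.60 for C1qa, -3.31 for C1qb, -3.17 for C1qc, 1.26 for C3 and -3.56 for C3ar1. All 5 detected members were past 2-fold, against 37.6% of 5849 genes, and the median log2 ratio of all these genes was -0.24. C1qa, C1qb, C1qc and C3ar1 reached the detection required in either group through control only. They were above 0 in 2, 2, 3 and 1 of 13 losartan+anti-PD1 cells. The count of members past 2-fold is therefore no support for the difference. The C1q level of losartan+anti-PD1 microglia rested on few cells: 1 cell held 99.8% of the C1qa signal, 62.4% of C1qb and 68.9% of C1qc. Without the highest cell of each group, the mean log2 ratio of the 3 chains was -5.25. The C3 ratio was 1.19 without those cells and 1.09 within cluster 6. With anti-PD1 alone, the ratios were -0.40, -0.17 and 0.57 for C1qa, C1qb and C1qc, 0.43 for C3 (-2.59 without the highest cell of each group) and 0.43 for C3ar1, and 0 of 5 members were past 2-fold, against 45.6% of 6737 genes. With losartan, the ratios were 0.87, 0.77 and 1.30 for the chains, 0.44 for C3 and 0.68 for C3ar1, and 1 of 5 members was past 2-fold, against 28.4% of 6273 genes, with a median of 0.24 over those genes. Shares of members at or below these backgrounds are no result about the members.

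The difference for losartan+anti-PD1 was present within cluster 6. C1qa averaged 16.99 TP100K in 7 losartan+anti-PD1 cells, 184 TP100K in 4 anti-PD1 cells, 277 TP100K in 24 losartan cells and 211 TP100K in 16 control cells of that cluster. It was above 0 in 2 of 7, 4 of 4, 21 of 24 and 15 of 16 of them. The 7 losartan+anti-PD1 cells had C1qa values of 118.7, 0.237 and 5 zeros, and C1qb values of 170.2, 102.4 and 5 zeros. C3 in the same cells was 78.6, 59.8, 55.96, 41.1 and 0.340 TP100K, with 2 zeros.

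These 7 cells differed from the others of cluster 6 in marker genes as well. The summed microglia markers had a median of 7.25 TP100K (range 0 to 100.5, 4 of 10 markers above 0) in losartan+anti-PD1, 545 TP100K in anti-PD1, 2081 TP100K in losartan and 117 TP100K in control cells of the cluster. The summed monocyte and macrophage markers had a median of 1687 TP100K (range 692.6 to 2681, 8 of 10 above 0), 378 TP100K, 136 TP100K and 488.5 TP100K in the same order of groups. A change of C1q within one kind of cell and a change in which cells were captured under the label cannot be told apart on these plates.

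On the CD3-positive plates, C1q chains were also found in T cells. At least 1 chain was above 0 in 54 of 327 T cells (16.5%), comprising 10 of 84 with losartan+anti-PD1, 18 of 88 with anti-PD1, 11 of 76 with losartan and 15 of 79 in control. The sum of the 3 chains averaged 1.27, 18.2, 20.1 and 21.8 TP100K in the same order of groups. All 3 chains were above 0 in 0, 3, 3 and 3 of their T cells. Over all 327 T cells, the mean levels were 4.48 TP100K for C1qa, 7.54 TP100K for C1qb and 3.16 TP100K for C1qc. They were 408, 658 and 144 TP100K in the 10 microglia of these plates. Lyz2, a myeloid lysozyme gene, was above 0 in 20 of the 54 T cells with a chain (37.04%) and in 5 of the 273 without (1.83%). Apoe, which microglia and macrophages express strongly, was above 0 in 39 (72.2%) and 30 (10.99%) of them. Cd3g was above 0 in 53 of the 54 cells and in 234 of the 273, and the median number of detected genes was 2258 and 1963. Cells labelled microglia on these plates numbered 1 with losartan+anti-PD1, 0 with anti-PD1, 7 with losartan and 2 in control. Whether doublets or free RNA contributed to C1q in T cells was not tested.

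C4b was the member most widely found outside the immune cells. It was above 0 in 27 of 31 oligodendrocytes (87.1%, interval 70.2 to 96.4%), 123 of 148 CD45-negative malignant cells (83.1%, interval 76.1 to 88.8%) and 107 of 117 malignant cells of the CD31-positive plates (91.5%, interval 84.8 to 95.8%). It was found in 18 of 195 endothelial cells (9.23%), which had fewer detected genes than the malignant cells of the same plates (median 3126 and 7042). Of the 31 oligodendrocytes, 29 came from the anti-PD1 plate, where C4b averaged 220.8 TP100K (lowest 0, median 238.7, highest 588.4). The 8 malignant cells of that plate averaged 13.5 TP100K (lowest 0, median 0, highest 105.3).

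The log2 ratio of oligodendrocytes over malignant cells on the anti-PD1 plate was 3.93 for C4b and -0.92 for Serping1. The Serping1 value rested on 2 malignant cells with the mural gene Pdgfrb above 10 TP100K, which held 98.3% of its signal in the 8 cells: without them the ratio was 3.01 for Serping1 and 3.54 for C4b. Against the malignant cells of all 4 CD45-negative plates it was 3.25 for C4b and 0.37 for Serping1, and without the highest cell of each group on the anti-PD1 plate it was 7.18 for C4b and 0.21 for Serping1. All 7 oligodendrocyte markers were above 0 in the 31 cells, with a median sum of 5994 TP100K. C4a, a near-identical copy of C4b 65.2 kb away (chr17:34809092-34823464), held 1.04% of the summed C4a and C4b signal in CD45-negative malignant cells and 0.0234% in oligodendrocytes, and how reads were divided between the copies is uncertain.

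Malignant cells exceeded endothelial cells in both genes on the CD31-positive plates. The median number of detected genes was 7042 in these malignant cells and 3126 in endothelial cells, and the depth of these plates is unknown. On the anti-PD1 plate, 1 malignant cell with Pdgfrb above 10 TP100K held 76.1% of the Serping1 signal of its group. C4b in malignant and endothelial cells was 9.43 and 0.98 TP100K with losartan+anti-PD1, 32.5 and 0.98 TP100K with anti-PD1, 5.40 and 0.05 TP100K with losartan, and 5.70 and 0.15 TP100K in control. Serping1 was 9.34 and 7.05, 56.8 and 1.82, 1.55 and 0.05, and 4.02 and 0.40 TP100K on the same plates. The log2 ratio over all cells was 2.73 for C4b (plates 2.40 to 4.08) and 2.11 for Serping1 (plates 0.36 to 4.36), and malignant cells were the higher on 4 of 4 plates for both. The correlation of the 2 genes from cell to cell was r = 0.056 over 148 CD45-negative malignant cells and 0.213 over 117 on the CD31-positive plates.

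By treatment, C4b in CD45-negative malignant cells averaged 32.6 TP100K in 44 losartan+anti-PD1 cells, 13.5 TP100K in 8 anti-PD1 cells, 18.8 TP100K in 47 losartan cells and 17.8 TP100K in 49 control cells. The medians were 24.6, 0, 13.5 and 13.3 TP100K and the highest cells 219.1, 105.3, 63.998 and 67.6 TP100K. The log2 ratio over control was 0.83, -0.37 and 0.07. On the CD31-positive plates the means were 9.43, 32.5, 5.40 and 5.70 TP100K in 51, 8, 25 and 33 cells, and the ratios 0.64, 2.32 and -0.07. C4b was thus higher than control with losartan+anti-PD1 in both sorts, by less than 2-fold, and the cells of the groups overlapped.

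Serping1, which encodes the C1 inhibitor, averaged 7.44, 21.8, 9.29 and 6.15 TP100K with losartan+anti-PD1, anti-PD1, losartan and control in CD45-negative malignant cells, with log2 ratios over control of 0.24, 1.67 and 0.52. On the CD31-positive plates it averaged 9.34, 56.8, 1.55 and 4.02 TP100K, with ratios of 1.04, 3.53 and -0.97. It was above 0 in 38 of 51, 5 of 8, 8 of 25 and 14 of 33 malignant cells of those plates.

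Of C4b and Serping1, the number past 2-fold in CD45-negative malignant cells was 0 of 2 with losartan+anti-PD1 (2.38% of all genes tested), 1 of 2 with anti-PD1 (46.7%) and 0 of 2 with losartan (1.49%). On the CD31-positive plates it was 1 of 2 (1.41%), 2 of 2 (29.7%) and 0 of 2 (1.78%). The anti-PD1 groups held 8 cells each, and the median log2 ratio of all genes was -0.36 for that group on the CD45-negative plate. Several of these 16 cells also had markers of other cell types. On the CD31-positive plate, 4 cells with C4b between 45.4 and 84.7 TP100K had Gfap, an astrocyte gene, between 133.8 and 1549 TP100K. In the same 4 cells Olig1, a marker used for malignant or glial progenitor cells, was at 114.9, 0, 226.3 and 122.9 TP100K. On that plate, 2 other cells with Gfap, at 290.2 and 43.01 TP100K, had C4b of 3.42 and 1.55 TP100K.

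Much of the Serping1 signal came from a few malignant cells that also expressed Pdgfrb, a receptor gene of pericytes and other mural cells, above 10 TP100K. On the CD45-negative plates 5 of 148 cells met this limit, averaged 124 TP100K of Serping1 against 4.33 TP100K in the other 143, and held 50.1% of its signal. On the CD31-positive plates 1 cell of 117, from the anti-PD1 plate, had 345.7 TP100K and held 31.4%. Without these cells, the log2 ratio of anti-PD1 over control was -1.70 on the CD45-negative plates and 1.72 on the CD31-positive plates, that of losartan over control was -0.58 on the CD45-negative plates, and that of losartan+anti-PD1 over control was 0.79 there. The ratio for losartan+anti-PD1 on the CD31-positive plates was 1.04 with and without them, since no cell of either group met the limit.

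**Figure D3:**
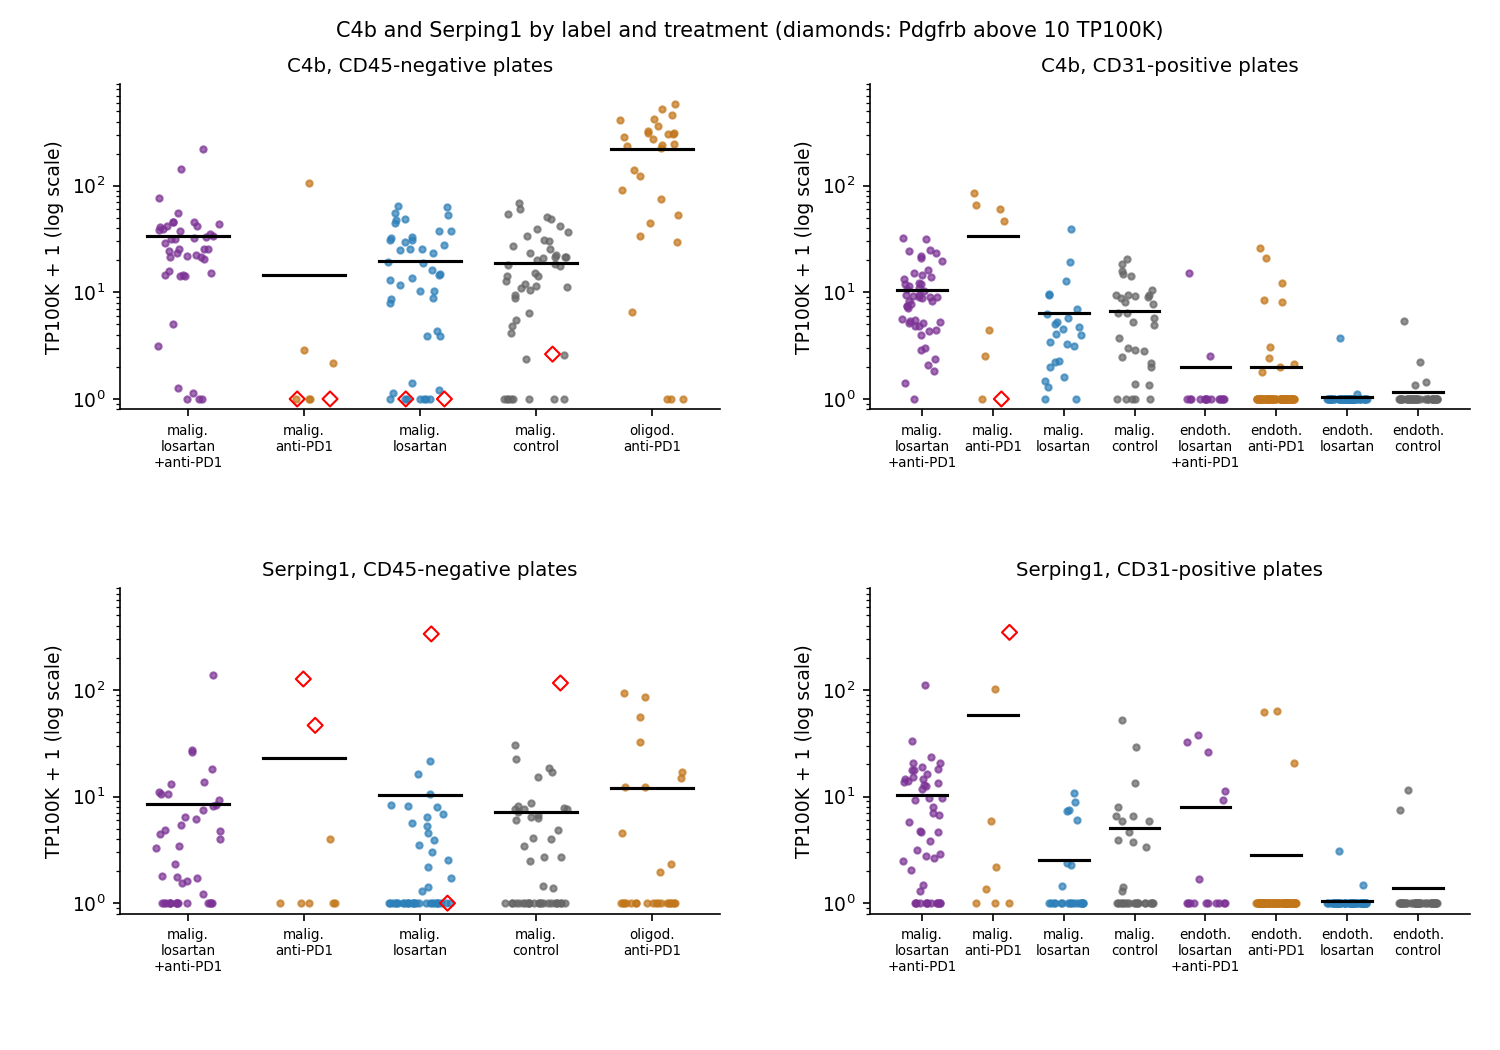
C4b and Serping1 by cell label and treatment on the CD45-negative and CD31-positive plates, as TP100K plus 1 on a log scale. Each point is a cell, bars are means over cells, and open diamonds mark malignant cells with Pdgfrb above 10 TP100K. Oligodendrocytes have the highest C4b mean on the CD45-negative anti-PD1 plate, and diamonds hold the highest Serping1 values in the anti-PD1 groups.

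Endothelial cells had little Serping1 except on the losartan+anti-PD1 plate. It was above 0 in 6 of 16 losartan+anti-PD1 cells (37.5%, interval 15.2 to 64.6%), 3 of 79 anti-PD1 cells (3.797%), 2 of 57 losartan cells (3.51%) and 2 of 43 control cells (4.65%). The means were 7.05, 1.82, 0.05 and 0.40 TP100K, and the highest cells 36.6, 62.5, 2.10 and 10.6 TP100K. The log2 ratio was 2.53 for losartan+anti-PD1 over control, past 2-fold as were 25.8% of 7003 genes, and 1.51 over anti-PD1. In both comparisons Serping1 reached the detection required in either group through the losartan+anti-PD1 cells only. Being past 2-fold beside this background is therefore no support for the difference. After adding 10 TP100K in place of 1, the ratio over control was 0.71.

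The plates differed in which endothelial clusters they held. Of 16 losartan+anti-PD1 cells, 5, 4 and 7 fell in deposited clusters 3, 7 and 12, whereas 78 of 79 anti-PD1 cells were in cluster 3 and 28 of 43 control cells in cluster 7. Serping1 was above 0 in 3 of 5 losartan+anti-PD1, 3 of 78 anti-PD1, 0 of 29 losartan and 0 of 3 control cells of cluster 3. In cluster 7 it was above 0 in 3 of 4, 0 of 1, 2 of 24 and 2 of 28 cells. Pdgfrb was at 0 in all 13 endothelial cells with Serping1.

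Of 61 complement gene symbols listed, 54 were in the table, and 32 of those were detected in 25% or more of cells under some label. CD45-positive microglia had 19 such genes, malignant cells 14 in each sort, oligodendrocytes and myeloid cells 10 each, endothelial cells 8 and T cells 4. Malignant cells had early classical components other than C1q: C1ra was above 0 in 74% of CD45-negative malignant cells, C1s in 54% and C2 in 78%, with 74%, 68% and 92% on the CD31-positive plates. C1ra, C1s, C2, C4b and Serping1 were all above 0 in 36 of 148 (24.3%) and 46 of 117 (39.3%) of these cells.

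Cells labelled microglia had genes of the alternative loop and receptors, which differed between their clusters. C5ar1, the C5a receptor, was above 0 in 33 of 51 cells of cluster 6 (64.7%) and 25 of 28 of cluster 11 (89.3%), against 4.11% of myeloid cells. Cfb, factor B, was above 0 in 27 of 51 (52.9%) and 3 of 28 (10.7%), against 29% of myeloid cells. Cfp, properdin, was above 0 in 22 of 51 (43.1%) and 12 of 28 (42.9%), against 81% of myeloid cells. Endothelial cells had Cd59a, an inhibitor of the membrane attack complex, in 44%. B cells had Cd55, a convertase inhibitor, in 73%.

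**Figure D4:**
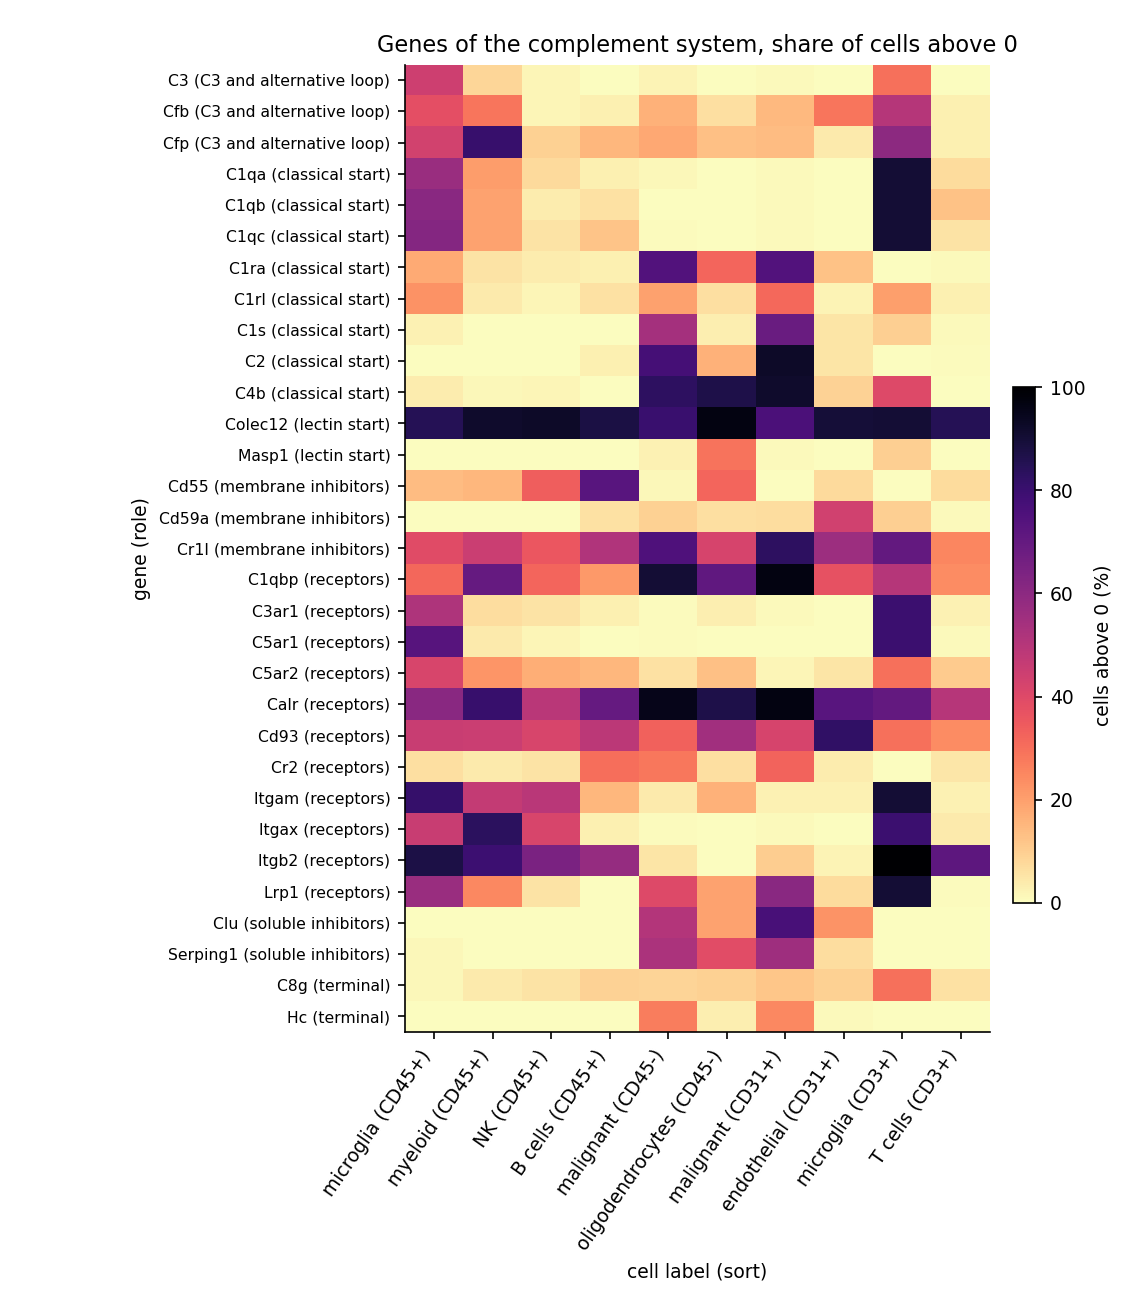
Percent of cells above 0 for genes of the complement list (rows, ordered by role) in each cell label and sort (columns). Genes shown reached 25% in at least 1 label. The C1q chains and C3ar1 stand out in microglia, and C1ra, C1s, C2, C4b and Serping1 in malignant cells.

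The genes whose pattern was most like each member over the 426 cells of the CD45-sorted plates were found among 12919 genes by the Pearson correlation of ln(TP100K + 1). The 5 most alike for the mean of the C1q chains included Trem2 (0.862), Mertk (0.790), Cx3cr1 (0.772) and Csf1r (0.768). Those for C3ar1 included Trem2 (0.711), Cx3cr1 (0.706), Lair1 (0.653) and Stab1 (0.650). For C3 they were Lyz1 (0.561), Lyz2 (0.538), Klra2 (0.534), Fcgr4 (0.504) and LOC100038947 (0.494), none of which was on the C1q or C3ar1 lists. For C4b they were Plekhb1 (0.776), Jam3 (0.769), Serpina3n (0.768), Gpm6b (0.754) and Atp6v0e2 (0.753). For Serping1 they were the complement genes C1ra (0.529) and C2 (0.512), then Prkcdbp (0.491), Gm4951 (0.485) and Jam3 (0.485). These cells share plates and differ in cell type and depth, so the correlations describe co-occurrence across cells.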

How the data were processed

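Single cells were read from 1 expression table of the whole series with its cell annotation (label, deposited cluster). According to the study's methods, the authors aligned reads with Bowtie to the mm10 transcriptome and quantified them with RSEM (the submitters' notes list RSEM 1.2.8, Bowtie and TopHat), and kept cells with enough detected and housekeeping genes. The deposited values are TPM on the CD31-positive and CD3-positive plates and RSEM expected counts, not divided by length, on the CD45-sorted plates, judged from cell totals. They were used unrounded, and each cell was scaled to 100000. Ratios are log2 of means after adding 1 TP100K. Background percentages cover genes detected in 25% or more of either group and count those with a log2 ratio of at least 1 in size (2-fold).

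Groups were the authors' labels within sort and treatment. Each group is 1 plate, so no model was fitted and no p-value is given. Doublets were gated out by scatter in the study, and no caller was run here. Named genes are the members, the 5 genes most like each by correlation among genes above 0 in at least 5% of cells, complement genes above 0 in 25% of the cells of a label, and markers. Genes outside this rule (Lyz2, Apoe and Cd3g in T cells, and Pdgfrb, Gfap and C4a) were chosen after their values were seen. A few genes that the rule names are not reported here. The members and lists were chosen with earlier results of these data known. The ratio calculation was run on simulated Poisson counts of well-detected genes with planted changes. There, 200 of 200 changed genes among 3009 were recovered for microglia over myeloid cells, after subtracting the median of the unchanged genes. The reported ratios had no such subtraction. The simulated cells also lacked the spread between real cells, so this checks the calculation only and not the ratios reported here. Alternatives were the pseudocount, filter, scaling, cluster, mean of logs, genes per cell, highest cell and plates left out. Calculations used SciPy 1.17.1, NumPy 2.4.6 and pandas 2.3.3 in Python 3.11.15, with plots from matplotlib 3.10.9.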

Additional observations from a re-analysis of the deposited data

Results flagged for a closer look

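Against control, 2 member genes in malignant cells differed in opposite directions in the CD45-negative and CD31-positive sorts, and these differences between sorts were not tested. C4b with anti-PD1 over control had a log2 ratio of -0.37 in the CD45-negative sort and 2.32 in the CD31-positive sort, with 8 anti-PD1 cells in each. Serping1 with losartan over control had a log2 ratio of 0.52 in the CD45-negative sort and -0.97 in the CD31-positive sort. Without malignant cells with Pdgfrb above 10 TP100K the CD45-negative value for Serping1 was -0.58, so that both sorts were then below control.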

How the results depend on the processing

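Of 322 values recomputed under an alternative, 23 had the other sign, and 4 of those were of results past 2-fold. C1qa, C1qb and C1qc over myeloid cells had ratios of -0.11, -0.0773 and -0.91 in cluster 11 alone, and Serping1 in CD45-negative malignant cells with anti-PD1 over control was -1.70 without cells with Pdgfrb above 10 TP100K. Among the others, C3 in microglia with anti-PD1 over control was -2.59 without the highest cells, and Serping1 in CD45-negative malignant cells with losartan over control was -0.58 without cells with Pdgfrb. The Pdgfrb setting, merging linked wells and malignant cells of all 4 plates were chosen after seeing the data. Leaving out each plate gave microglia over myeloid ratios of 4.86 to 5.005 for C1qa, 5.19 to 5.95 for C1qb, 4.89 to 5.44 for C1qc, 3.39 to 4.02 for C3 and 3.50 to 4.20 for C3ar1, and a share with all 3 chains between 44.9% and 63.6%. That share was 80.4% in cluster 6 and 7.14% in cluster 11. The mean C1q ratio over control was, with losartan+anti-PD1, -2.73 with a pseudocount of 10 and -5.25 without the highest cell of each group. With anti-PD1 it was -0.65 scaled by the 75th percentile, -0.93 as a difference of mean log2 values and -0.63 without the highest cells, and with losartan it was 0.19 scaled by the 75th percentile. The C4b ratio of malignant over endothelial cells was 3.88 and 0.86 with a pseudocount of 0.1 and 10. That of oligodendrocytes over malignant cells was 3.29 with a pseudocount of 10, 5.48 as a difference of mean log2 values, 7.18 without the highest cells and 3.25 against malignant cells of all 4 plates. The same ratio for Serping1 was -0.32 as a difference of mean log2 values, 0.21 without the highest cells, 0.37 against malignant cells of all 4 plates and 3.01 without cells with Pdgfrb. The number of genes past 2-fold was 2197 in microglia with losartan+anti-PD1, 3070 in microglia with anti-PD1, 1782 in microglia with losartan, 234 in CD45-negative malignant cells with losartan+anti-PD1, 4922 in CD45-negative malignant cells with anti-PD1, 147 in CD45-negative malignant cells with losartan, 141 in CD31-positive malignant cells with losartan+anti-PD1, 3220 in CD31-positive malignant cells with anti-PD1, 177 in CD31-positive malignant cells with losartan, 1809 in endothelial cells with losartan+anti-PD1 and 1406 in microglia over myeloid cells. The count was, without a filter, 3715 in microglia with losartan+anti-PD1, 3266 in microglia with losartan, 271 in CD45-negative malignant cells with losartan, 271 in CD31-positive malignant cells with losartan, 2829 in endothelial cells with losartan+anti-PD1 and 2184 in microglia over myeloid cells. The count was, with detection in at least 50% of cells, 702 in microglia with losartan+anti-PD1, 1079 in microglia with anti-PD1, 633 in microglia with losartan, 126 in CD45-negative malignant cells with losartan+anti-PD1, 3197 in CD45-negative malignant cells with anti-PD1, 85 in CD45-negative malignant cells with losartan, 90 in CD31-positive malignant cells with losartan+anti-PD1, 113 in CD31-positive malignant cells with losartan, 595 in endothelial cells with losartan+anti-PD1 and 714 in microglia over myeloid cells. The count was, with a pseudocount of 10, 335 in microglia with losartan+anti-PD1, 564 in microglia with anti-PD1, 256 in microglia with losartan, 15 in CD45-negative malignant cells with losartan+anti-PD1, 718 in CD45-negative malignant cells with anti-PD1, 7 in CD45-negative malignant cells with losartan, 17 in CD31-positive malignant cells with losartan+anti-PD1, 503 in CD31-positive malignant cells with anti-PD1, 15 in CD31-positive malignant cells with losartan, 192 in endothelial cells with losartan+anti-PD1 and 316 in microglia over myeloid cells. The count was, with a pseudocount of 0.1, 953 in CD45-negative malignant cells with losartan+anti-PD1, 769 in CD45-negative malignant cells with losartan, 666 in CD31-positive malignant cells with losartan+anti-PD1, 5633 in CD31-positive malignant cells with anti-PD1, 926 in CD31-positive malignant cells with losartan and 2789 in endothelial cells with losartan+anti-PD1. The count was, scaled by the 75th percentile, 72 in CD45-negative malignant cells with losartan, 242 in CD31-positive malignant cells with losartan+anti-PD1, 325 in CD31-positive malignant cells with losartan and 1178 in endothelial cells with losartan+anti-PD1. The causes were not tested. No paired analysis was possible because each treatment within a sort is 1 plate; ratios between cell labels within each plate are in the report. Groups of 8 to 16 cells, 1 plate for each treatment and unknown depth on the TPM plates limit every value.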
